A study of Mus musculus with 4 samples.

Results

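The comparison of spheroid with organoid at embryonic day 16 (E16) rests on 2 pairs of cultures, 1 pair from each of 2 fetuses, out of 4 pairs in the series. Its members were chosen by label, as every pair marked E16, and the genes described lay beyond the range of the negative control probes in both pairs. By that rule 2354 genes were higher and 2379 lower in spheroids, of 15123 genes measured. Both fetuses were wild-type CD1 mice. Each pair was grown from the small intestine of 1 fetus, inside a gel of basement membrane proteins (Matrigel) and with EGF, Noggin, R-spondin1 and fetal bovine serum. Spheroids and organoids were picked from the same culture and replated for 3 passages, so both sides of each ratio shared animal, medium and gel. The other pairs, used here only for reference, were 1 from an E18 fetus (embryonic day 18) and 1 from a P0 newborn (postnatal day 0), again CD1 wild type. Picking by shape and 3 passages limit the cultures as a model of the fetal gut, and the host tissue around the epithelium was not part of them.

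Spheroids are hollow epithelial cysts that fetal intestine forms in culture, and organoids bud into crypts with stem cells, Paneth cells and differentiated cells. In the intestine, absorptive enterocytes take up nutrients through a brush border, while goblet, enteroendocrine, tuft and Paneth cells secrete mucus, hormones, signals and defence peptides. Stem cells at the crypt base depend on Wnt signalling, and the coactivator YAP is known from fetal and regenerating epithelium. The arrays carried 70-base probes, and each value is a log2 ratio of spheroid to organoid RNA, so that 1 stands for a 2-fold difference. Positive values are taken to mean higher in spheroids, which is likely but not certain, since no label names the numerator. If it were reversed, every direction below would turn. Values are given for the first pair and then for the second, unless a sentence says otherwise. With n = 2 these values are the spread, and no SD is repeated beside them. In RNA from whole cultures, fewer cells of a type and less RNA per cell cannot be told apart.

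The labels were set against markers of the cell types involved. Lgr5, the receptor for R-spondin on crypt stem cells was lower in spheroids, with ratios of -2.06 and -1.06, and missed the threshold of the test described below (adjusted p = 0.0542 in limma). Of 15 crypt base genes, Lgr5 included, 6 were lower and 4 higher, Sox9 among the latter at 0.64 and 1.01. These genes thus did not mark 1 culture as a group. The gap junction gene Gja1, known from fetal spheroids, had ratios of 4.62 and 4.03. Markers of cells outside the epithelium lay near 0. Of 22 mesenchyme and smooth muscle genes, 1 was higher, 1 lower and 20 lay inside the control range in both pairs. The fibrillar collagen gene Col1a1 stood at 0.02 and -0.06. Of 9 nerve and glia genes 9 lay inside, and of 14 endothelial genes 9 did, with the endothelial receptor Robo4 lower at -0.27 and -0.30. Among 16 leukocyte genes 13 lay inside, the pan-leukocyte gene Ptprc among them at 0.03 and 0.01. The lysosomal Laptm5 at 2.70 and 2.47 and the lipopolysaccharide receptor Cd14 at 1.94 and 1.78 were higher, and the gene Lyz2, which closely resembles the Paneth cell lysozyme Lyz1, was lower at -2.05 and -1.58. The 4 Lyz2 probes differed by up to 2.74 in their means. A ratio near 0 does not say whether a gene was expressed, and brightness is unknown because no intensities were used here.

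The negative control probes, 94 in number, spanned -0.14 to 0.15 in the first pair and -0.16 to 0.20 in the second. Genes beyond that range on the same side in both pairs made up 15.6% (2354 higher) and 15.7% (2379 lower) of all genes. Inside it in both pairs were 7609 genes (50.3%), beyond it in 1 pair only were 2670, and 111 (0.734%) lay beyond it on opposite sides. No filter on low values was applied, so all 15123 genes entered. The median of the mean ratio was 0.46 over the higher and -0.51 over the lower genes. Both ratios reached 1 in size for 251 higher and 394 lower genes, and 2 in size for 60 and 87. Just past the upper limit stood Pick1 at 0.15 and 0.22 and just short of it Fam219b at 0.18 and 0.20. At the lower limit Abr stood just past it at -0.14 and -0.22 and Fbxo46 just short of it at -0.16 and -0.16.

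**Figure D1:**
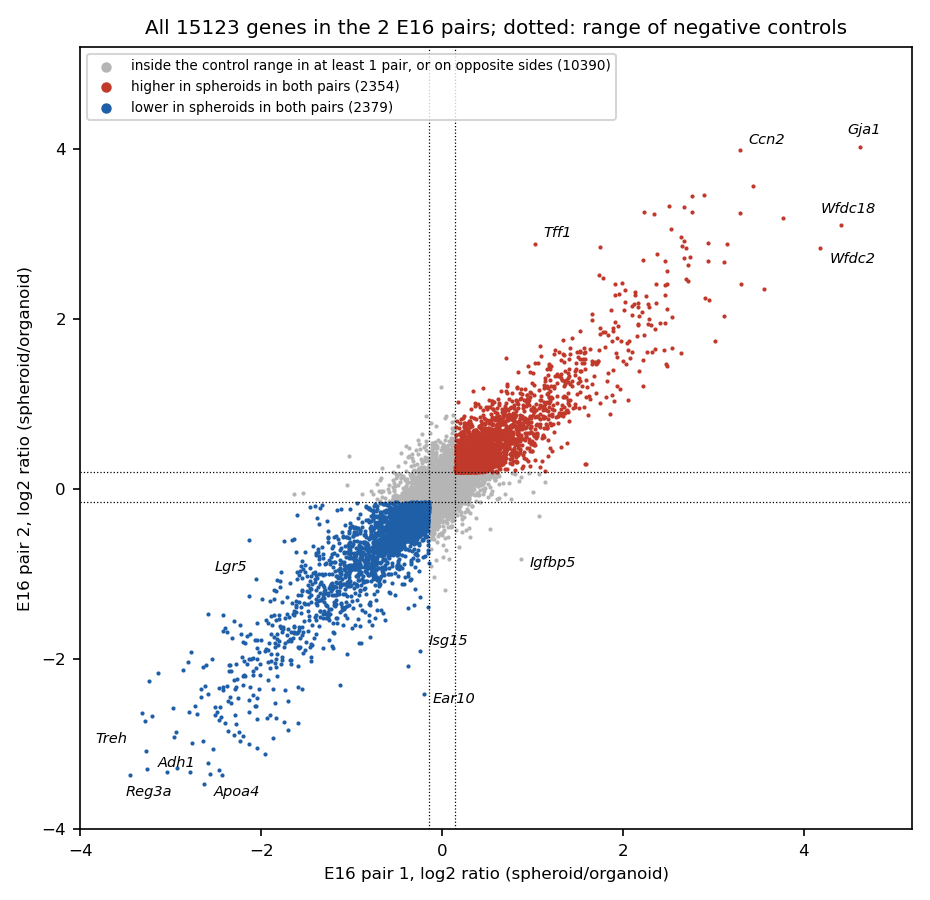
Log2 ratio of spheroid to organoid in the first E16 pair (horizontal axis) against the second (vertical axis), 1 point per gene for 15123 genes. Dotted lines mark the range of the negative control probes in each pair. The 2354 higher genes (red) and 2379 lower genes (blue) lie along the diagonal, and Igfbp5 lies beyond the range on opposite sides.

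The test in limma set the mean of the 2 pairs against 0 for each gene, with Benjamini-Hochberg adjustment over all 15123 genes. At an adjusted p under 0.05 it called 1666 genes higher (11%) and 1653 lower (10.9%), all of them among the genes beyond the control range. With a mean of at least 2-fold as well, 305 were higher (2.02%) and 466 lower (3.08%). The p-values measure the spread between 2 animals of 1 stage, with 1 residual degree of freedom per gene beside the prior shared by all genes. Left with 1 E16 pair, in a fit that took its spread from the E18 and P0 pairs, limma called 0 genes. At an unadjusted p under 0.05 that fit gave 939 higher and 797 lower without the first pair and 850 and 853 without the second. With all 4 pairs in 1 fit, 277 genes were called higher and 272 lower. That fit took the E18 and P0 pairs as 1 group, so its spread also held the difference between these stages. Below, "passed" refers to the test on the 2 pairs, and "higher" or "lower" to the control range in both pairs.

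Of the 25 genes that stood highest by the smaller of their 2 ratios, all 25 passed, with adjusted p between 0.00660 and 0.0243 in limma. With all 4 pairs in 1 fit 12 of them passed and 13 did not, with adjusted p up to 0.161 in limma. Both fits held the same E16 ratios that ranked these genes, so passing was likely beforehand and adds no support. Gja1 encodes connexin 43, a channel protein of gap junctions, and led with a 20.0-fold mean difference (adjusted p = 0.00815). Ccn2, the secreted connective tissue growth factor and a target of YAP, had ratios of 3.30 and 3.98. The surfactant collectin Sftpd stood at 3.30 and 3.24, the surface protein Msln at 2.95 and 2.89 and the chaperone Clu at 2.52 and 3.33. For the whey acidic protein family the pairs were farther apart, with Wfdc18 at 4.41 and 3.10 and Wfdc2 at 4.18 and 2.83. Ly6f and Ly6c1, lipid-anchored surface proteins of the Ly6 family, had ratios of 3.44 and 3.56 and of 2.70 and 2.84. Both genes resemble others of their family, and a probe may also bind those.

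Annexins, which bind membranes when calcium is present, supplied 3 of the 25. Anxa3 stood at 2.77 and 3.26, Anxa1 at 2.77 and 3.45 and Anxa8 at 2.54 and 3.06. Genes known from the stomach were Ctse, an aspartic protease, at 3.77 and 3.19 and Vsig1, a junction protein, at 2.75 and 2.72. The cytoskeletal and adaptor genes were the tubulin Tubb6 at 3.15 and 2.88, the LIM protein Crip2 at 2.90 and 3.45 and the keratin Krt4 at 2.72 and 2.63. Il33, a cytokine released from damaged cells, had ratios of 2.94 and 2.68, and Ccnd1, the cyclin that drives entry into the cell cycle, of 2.66 and 2.86. The 4 probes of Ccnd1 are averaged in that value. The remaining 6 were the membrane proteolipid Mal, the small heat shock protein Cryab, the serpin Serpinb9b, the synaptotagmin Syt16, the IGF-binding protein Igfbp7 and the corepressor Ripply3, with ratios from 2.49 (Ripply3, first pair) to 3.31 (Mal, second pair). All 25 were beyond the control range on the same side in the E18 pair and in the P0 pair. Of all genes, 24.2% were higher in the E18 pair and 21.5% in the P0 pair.

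**Figure D2:**
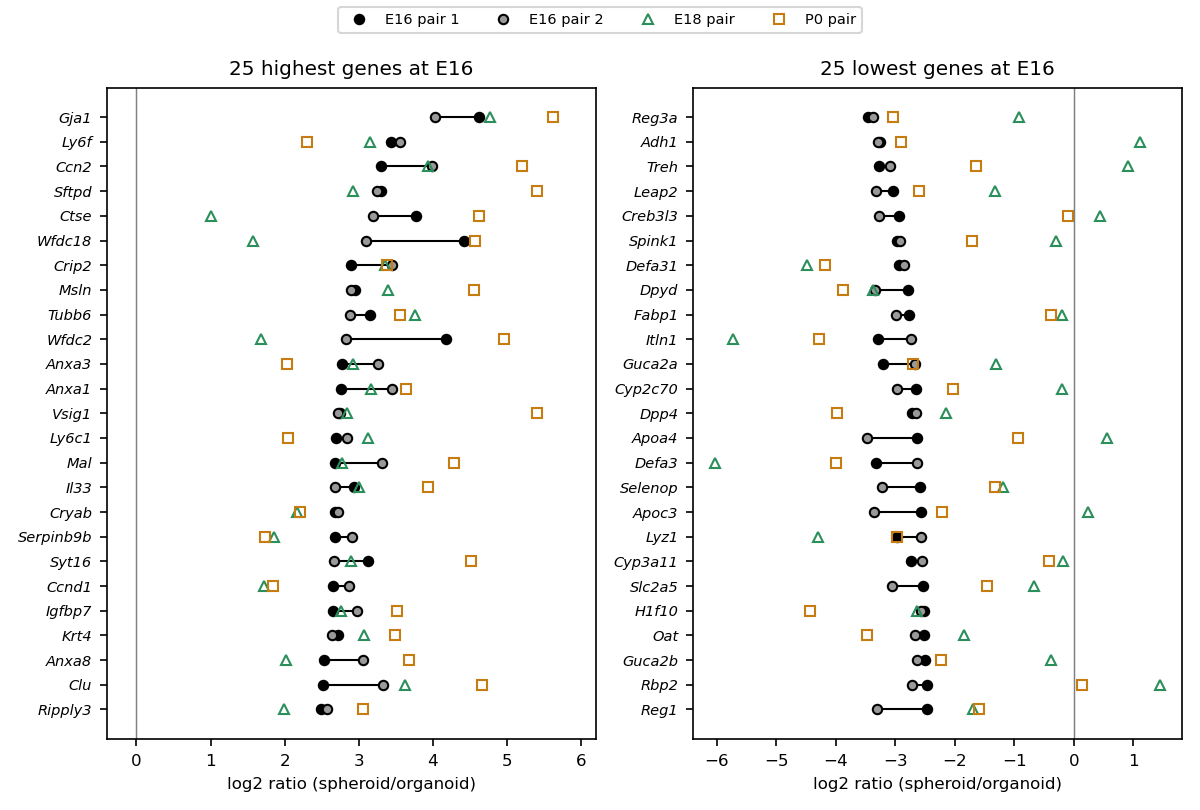
Log2 ratio of spheroid to organoid (horizontal axis) for the 25 highest and the 25 lowest genes at E16, ranked by the smaller of both E16 ratios. Filled circles joined by a line are the E16 pairs, open triangles the E18 pair and open squares the P0 pair. The highest genes lie above 0 in every pair, while Adh1, Treh, Creb3l3, Apoa4, Apoc3 and Rbp2 lie below 0 at E16 and above 0 in the E18 pair.

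The 25 lowest genes also all passed, with adjusted p between 0.00660 and 0.0167. With all 4 pairs in 1 fit 8 passed and 17 did not, with adjusted p up to 0.203 in limma. Here too the ranking and the fits shared the E16 ratios, so passing adds no support. Reg3a, a secreted lectin with antibacterial relatives, stood lowest at -3.46 and -3.37 (10.6-fold lower, adjusted p = 0.00660). Adh1, which oxidises alcohols including retinol, had ratios of -3.26 and -3.29. Treh, the brush border enzyme that splits trehalose, stood at -3.28 and -3.09. Leap2, a peptide that blocks the ghrelin receptor, had ratios of -3.04 and -3.33. The transcription factor gene Creb3l3, which acts on lipid genes in liver and intestine, stood at -2.93 and -3.28. Fabp1, the fatty acid binding protein of liver and intestine, had ratios of -2.77 and -2.99. The apolipoprotein genes Apoa4, at -2.64 and -3.47, and Apoc3, at -2.57 and -3.36, were lower in the second pair than in the first.

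The same group held secreted products. The defensins Defa31 and Defa3 had ratios of -2.94 and -2.86 and of -3.32 and -2.63, the lectin Itln1 of -3.29 and -2.73 and the lysozyme Lyz1 of -2.97 and -2.57. Defensins and lysozymes come in very similar copies, and these values may be shared within each family. Guca2a and Guca2b, which encode guanylin and uroguanylin, stood at -3.21 and -2.67 and at -2.49 and -2.63. Dpp4, a peptidase of the brush border, had ratios of -2.71 and -2.65 and Slc2a5, the fructose transporter, of -2.53 and -3.06. Dpyd, which breaks down pyrimidines, stood at -2.79 and -3.33, and H1f10, a linker histone, at -2.51 and -2.57. The selenium carrier Selenop had ratios of -2.59 and -3.22 and Reg1, a relative of Reg3a, of -2.47 and -3.30. Of these 25 genes, 23 were beyond the control range on the same side in the P0 pair but 15 in the E18 pair. That range was -0.36 to 0.10 in the E18 pair and -0.33 to 0.17 in the P0 pair. A lower call there thus needed a value farther from 0 than at E16. In the E18 pair Spink1, Fabp1, Cyp2c70 and Cyp3a11 lay below 0 but inside it, from -0.30 to -0.18. Adh1, Treh, Creb3l3, Apoa4, Apoc3 and Rbp2 lay above 0 there.

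Genes known from fetal intestinal spheroids had the highest median among the lists, and the list is no independent evidence of direction, since its genes come from work on such spheroids. All 15 measured members were higher and all 15 passed, against a background of 15.6% higher and 11% passed as higher among all genes. The list medians were 2.77 and 2.89 in the pairs, where the median of all genes is 0.00. The shares of all genes, 15.6% higher and 15.7% lower, with 11% passing as higher and 10.9% as lower, are the background for every list count that follows. Besides the members named above, the keratin Krt7 stood at 2.37 and 2.42 and the interleukin 1 receptor antagonist Il1rn at 2.12 and 2.17. Sprr1a, a cornified envelope protein, had ratios of 2.95 and 2.22. The lowest member, Ly6e, stood at 1.40 and 1.26.

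YAP and its partner TAZ bind DNA through TEAD factors, and many of their targets shape adhesion and the cytoskeleton. Of 23 measured targets and pathway members 14 were higher, 1 was lower and 13 passed as higher. Ccn1, a secreted relative of Ccn2, had ratios of 2.03 and 2.34 (adjusted p = 0.00896). The clotting initiator F3 stood at 1.98 and 1.74, and Amotl2, which holds YAP back at junctions, at 1.73 and 1.51. The scaffold Ajuba had ratios of 1.32 and 1.52 as the mean of 2 probes that lay 1.75 apart. Wwtr1, the gene of TAZ itself, stood at 1.44 and 1.22 over 3 probes up to 1.24 apart, and the stress gene Gadd45a was the lower member at -1.30 and -1.43. The TEAD motif GGAATG, searched on both strands in the 250 bases before the start site, was found for 10 of 19 list genes with a promoter sequence (52.6%) and for 14.4% of all 27025 genes. Among genes at least 2-fold higher in both pairs, 39 of 185 held it (21.1%), and among those at least 2-fold lower 48 of 333 (14.4%). A match describes letters and not a bound site. Of the 6 higher members that held it, Ccn1 and Amotl2 had the largest ratios, and a stretch of their promoters is shown from RefSeq (GRCm38.p6) with the motif, here on the other strand, in capitals; Ccn1 lies at chr3:145650026-145650145 on the minus strand and Amotl2 at chr9:102717682-102717801 on the plus strand.
Ccn1: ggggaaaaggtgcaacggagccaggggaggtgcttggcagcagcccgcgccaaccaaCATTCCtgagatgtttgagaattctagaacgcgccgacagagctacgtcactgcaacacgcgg
Amotl2: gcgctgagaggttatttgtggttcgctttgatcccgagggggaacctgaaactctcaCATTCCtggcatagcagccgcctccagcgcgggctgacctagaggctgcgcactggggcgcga

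Genes of cell division were higher together at E16, by small amounts. Of 39 DNA replication genes 32 were higher and 0 lower, 24 passed, and the medians were 0.35 and 0.50. The ribonucleotide reductase subunit Rrm2 had ratios of 0.89 and 0.83 over 4 probes up to 1.03 apart, the licensing factor Cdc6 of 0.75 and 0.74 and the helicase subunits Mcm3 and Mcm2 of 0.65 and 0.69 and of 0.63 and 0.99. The highest mean of the list was 0.86, so no member reached 2-fold in its mean. Of 43 mitosis and spindle genes 29 were higher, 0 lower and 24 passed, with medians of 0.35 and 0.46. Kif23 and Ect2, which act in the final cleavage of the cell, stood at 1.16 and 1.41 and at 0.95 and 1.44, and the spindle factor Tpx2 at 0.68 and 0.76. Of 35 genes of ribosome biogenesis and the nucleolus 29 were higher, 0 lower and 24 passed, with medians of 0.43 and 0.55. Tcof1, which aids transcription of ribosomal RNA, had ratios of 0.86 and 0.80, and the small nucleolar protein gene Nhp2 of 0.66 and 0.94.

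The ribosomal proteins themselves did not share that position. Of 72 cytosolic ribosomal protein genes 12 were higher and 4 lower, or 16.7% and 5.56% against 15.6% and 15.7% of all genes, and the medians were 0.06 and 0.05. Rps4x stood apart at 2.23 and 1.81, and the next by the smaller ratio was Rps27l at 0.64 and 0.75. Ribosomal protein genes have many processed copies, so single members are uncertain. Among 22 cyclins, Cdk inhibitors and their partners 11 were higher and 5 lower. The D-type cyclin Ccnd2 stood at 1.81 and 1.84 and the p53 target Ccng1 at 1.84 and 1.82. Inhibitors went both ways, with Cdkn2a at 1.22 and 0.86, Cdkn1c at -1.39 and -1.19 and Cdkn2b at -0.90 and -0.68.

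The E2F factors switch on genes of DNA replication, and their motifs TTTCCCGC and TTTGGCGC were searched in the same windows on both strands. Of genes on the array with a promoter sequence, 2.19% held a match. Among those at least 2-fold higher in both pairs 2 of 185 did (1.08%), and among those at least 2-fold lower 2 of 333 (0.601%). The motifs were found for 6 of 35 replication genes with a promoter sequence (17.1%) and for 1.51% of all 27025 genes. All 6 were among the higher genes, and those outside the naming rule are named for their match, with Mcm7 at 0.29 and 0.47, Mcm6 at 0.48 and 0.37, Pola1 at 0.25 and 0.35 and Gins3 at 0.35 and 0.26 beside Cdc6 and Mcm5. Stretches of the promoters of Cdc6 (chr11:98907957-98908076, plus strand) and Mcm5 (chr8:75109304-75109423, plus strand) are shown, with the match in capitals on the other strand. Mcm5 had ratios of 0.45 and 0.87 and missed the threshold (adjusted p = 0.0573).
Cdc6: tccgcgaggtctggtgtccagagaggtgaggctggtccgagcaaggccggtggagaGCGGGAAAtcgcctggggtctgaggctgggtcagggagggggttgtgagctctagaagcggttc
Mcm5: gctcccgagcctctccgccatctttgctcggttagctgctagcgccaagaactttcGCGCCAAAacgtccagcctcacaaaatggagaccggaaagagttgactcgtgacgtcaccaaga

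**Figure D3:**
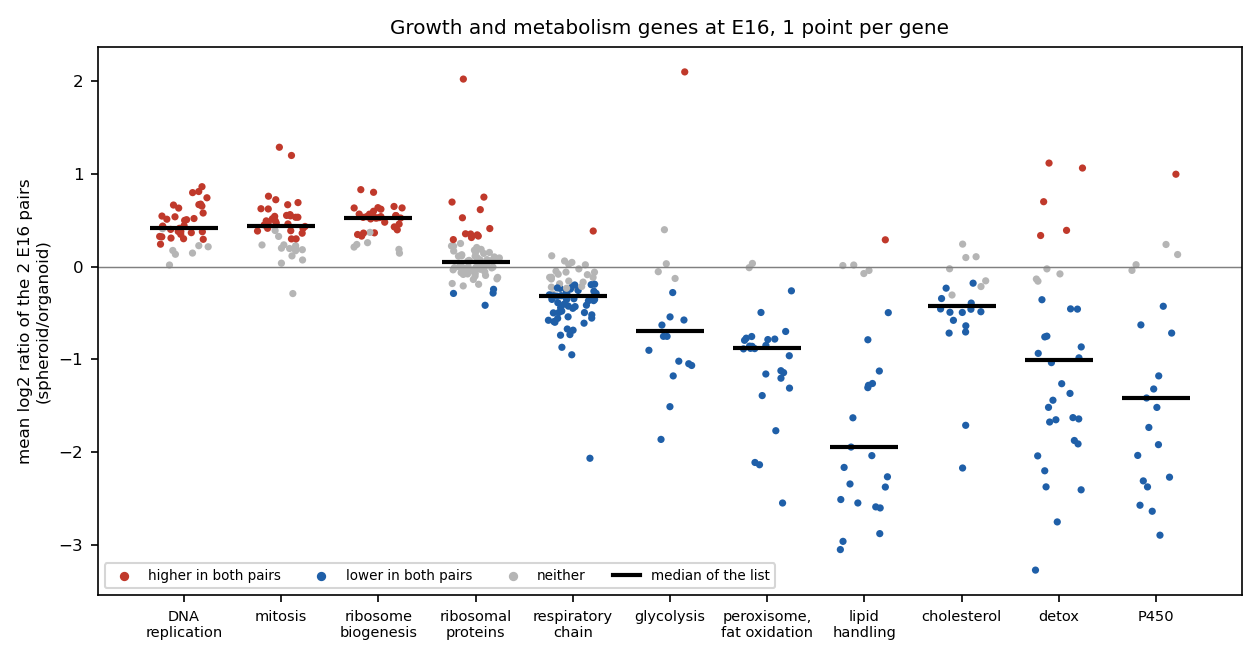
Mean log2 ratio of the 2 E16 pairs (vertical axis) for the genes of 11 lists, 1 point per gene, with the list median as a bar. Red points are higher and blue points lower than the control range in both pairs. Replication, mitosis and ribosome biogenesis genes lie mostly above 0 within 1 log2 unit, and metabolic lists lie mostly below 0.

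EGF family ligands signal through ErbB receptors. Of 22 ligands, receptors, feedback and response genes of this pathway 11 were higher and 2 lower, with 10 passing as higher. The ligands Btc, at 1.42 and 1.24, Ereg, at 1.35 and 1.10, and Hbegf, at 0.81 and 1.04, stood above 0, and the ligand Nrg4 below it at -1.20 and -1.68. The 2 Ereg probes lay 1.84 apart. The response genes Phlda1 and Fosl1 had ratios of 1.18 and 1.47 and of 1.28 and 0.78. Of 28 genes of the interleukin 1 family and the NF-kB response 15 were higher, 1 lower and 11 passed. Icam1, an adhesion receptor for leukocytes, stood at 2.28 and 1.94 and the prostaglandin synthase Ptgs2 at 1.16 and 0.74. Among 20 chemokines and receptors 7 were higher and 3 lower. Ccl25, the chemokine of mature small intestine, was lowest at -2.42 and -2.36, while the neutrophil attractants Cxcl5 and Cxcl1 stood at 2.06 and 1.04 and at 0.84 and 1.19. Cxcl5 missed the threshold (adjusted p = 0.0565).

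Cytoskeleton and matrix genes beyond the control range were mostly higher. Of 43 actin, myosin, tropomyosin and tubulin genes and partners 25 were higher, 5 lower and 22 passed as higher. The tubulin Tuba1a had ratios of 1.72 and 1.50 and the nuclear lamin Lmna of 1.32 and 1.35. Mylk, a kinase, was lower at -1.61 and -1.32. The higher count includes the urokinase receptor Plaur, at 2.38 and 2.77, a surface receptor that is also in the protease list and is no cytoskeleton gene. Of 26 annexins and S100 proteins 18 were higher and 4 lower. S100a6 stood at 2.17 and 1.94 and S100a11 at 1.87 and 2.11, whereas S100g, the calcium carrier of enterocytes, stood at -2.18 and -2.20 and the enterocyte annexin Anxa13 at -1.08 and -0.89. Of 27 basement membrane genes 11 were higher and 3 lower. The collagen IV chains Col4a1 and Col4a2 had ratios of 2.24 and 3.26 and of 2.55 and 2.02, and the laminin chain Lamb1 of 1.60 and 1.20. The collagen-modifying hydroxylases P4ha1, at -0.61 and -0.86, and P4ha2, at -0.31 and -1.36, were lower, the latter without passing (adjusted p = 0.181). Integrin chains differed little, with 3 of 16 higher, 2 lower and the farthest, Itgb6, at 0.78 and 0.59.

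Extracellular proteases and their inhibitors were higher in 17 and lower in 7 of 46 cases. The serpin Serpinb6b stood at 2.25 and 2.27, the serine protease Prss22 at 1.91 and 1.96 and the metalloprotease inhibitor Timp2 at 1.75 and 1.90. Spink1, a trypsin inhibitor, was the lowest of them at -2.96 and -2.91. Of 47 guidance molecules 9 were higher (19.1%) and 11 lower (23.4%), near the shares of all genes (15.6% and 15.7%). The receptors Epha4 and Epha2 had ratios of 1.99 and 2.42 and of 1.94 and 1.56, and the ligand Efna1 was lower at -1.68 and -2.01. Semaphorins lay on both sides, with Sema3c at 1.66 and 1.47 and Sema6d at -1.83 and -1.71. Among 15 connexins and pannexins Gja1 was the only one beyond the control range in both pairs.

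Genes known from gastric epithelium were higher in 9 and lower in 2 of 18 cases, with medians of 1.10 and 0.68. Besides Ctse and Vsig1, the gastrokine Gkn1 stood at 2.49 and 2.12, the water channel Aqp5 at 2.10 and 2.05 and the surface antigen Psca at 2.46 and 1.64. Gkn2, at 2.64 and 1.60, and the trefoil factor Tff1, at 1.03 and 2.89, differed more between the pairs, and Tff1 missed the threshold (adjusted p = 0.109). The digestive products pepsinogen, Pgc at 0.15 and 0.10, and intrinsic factor, Cblif at -0.11 and -0.10, did not share this. Of 34 cornified envelope and desmosome genes 11 were higher and 0 lower, while 16 lay inside the control range in both pairs. The envelope proteins Lor, Ivl and Ppl had ratios of 2.34 and 3.23, of 2.36 and 2.18 and of 1.53 and 1.39. Keratins of simple epithelia were higher in 5 of 6 cases, with Krt18 at 1.53 and 1.63, and Krt20, a keratin of differentiated enterocytes, was lower at -1.64 and -1.68.

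Enterocyte genes were lower as a group. Of 25 genes for absorption and transport of lipid and vitamin A 20 were lower, 1 higher and 19 passed as lower, with medians of -1.84 and -2.05. The retinol carrier Rbp2 stood at -2.47 and -2.71, the fatty acid binding protein Fabp2 at -2.67 and -2.36 and Mogat2, which rebuilds triglycerides, at -2.38 and -2.31. The brush border list held 15 lower and 1 higher genes of 19, with medians of -0.96 and -1.22. The scaffold Pdzk1 had ratios of -2.20 and -2.90, the metalloprotease Mep1a of -2.01 and -2.19 and the neprilysin gene Mme of -2.18 and -1.81. Ezr, the linker of actin to the membrane, was the higher member at 0.76 and 0.42 and missed the threshold (adjusted p = 0.0511).

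Transporters of sugar, ions, metals and bile acids were lower in 15 and higher in 2 of 23 cases. Slc5a1, the sodium-glucose cotransporter, stood at -2.30 and -2.90 and Slc2a2, the exit route of glucose, at -1.73 and -2.36. The bile acid exporter subunits Slc51a and Slc51b had ratios of -1.96 and -1.91 and of -1.85 and -1.85. The chloride channel Cftr, at 0.82 and 0.38, was higher without passing (adjusted p = 0.0747). Amino acid transporters split more evenly, with 7 of 19 lower and 3 higher. Slc6a20a and Slc3a1, which act at the brush border, stood at -2.33 and -2.14 and at -2.09 and -2.42, and Slc7a5, a carrier of growing cells, at 0.96 and 0.66.

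Transcription factors of the intestine were lower in 16 and higher in 2 of 25 cases, with 15 passing as lower. The vitamin D receptor Vdr had ratios of -2.07 and -1.77, the bile acid receptor Nr1h4 of -1.64 and -1.61 and the nuclear receptor Hnf4g of -2.40 and -1.63. The caudal factor Cdx1, which sets intestinal identity together with Cdx2, stood at -1.86 and -1.30. Gata5 was higher at 0.61 and 0.71. Values for factors outside the naming rule, chosen after they were seen, were -0.95 and -1.02 for Cdx2 and -0.84 and -1.24 for Hnf4a. HNF4 factors bind the motif CAAAGTCCA, which was found in the windows of 11 of 333 genes at least 2-fold lower in both pairs (3.30%), of 1 of 185 at least 2-fold higher (0.541%) and of 0.451% of all 27025 genes. Of 20 lipid handling genes 0 held it in these windows. Among the 11 were Muc13, a membrane mucin, at -2.20 and -2.31, Cyp3a11 at -2.73 and -2.55, Cyp2c70 at -2.65 and -2.96 and Treh. Stretches of the promoters of Treh (chr9:44673106-44673225, plus strand) and Cyp2c70 (chr19:40187287-40187406, minus strand) are shown with the match in capitals, which in Treh is on the other strand.
Treh: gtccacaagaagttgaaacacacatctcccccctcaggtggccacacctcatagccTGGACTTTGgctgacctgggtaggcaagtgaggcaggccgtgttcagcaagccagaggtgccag
Cyp2c70: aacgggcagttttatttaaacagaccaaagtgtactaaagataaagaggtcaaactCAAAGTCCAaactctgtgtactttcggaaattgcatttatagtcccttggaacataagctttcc

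Several lists of metabolic enzymes were mostly lower. Fructose and gluconeogenic enzymes were lower in 7 of 8 cases, with Gpd1 at -2.33 and -2.52, the glucose-6-phosphatase G6pc at -2.28 and -2.33 and the fructokinase Khk at -2.06 and -2.10. Of 27 genes of peroxisomes and fatty acid oxidation 25 were lower, 0 higher and 23 passed, with medians of -0.83 and -0.92. The peroxisomal enzyme Ehhadh stood at -2.09 and -2.19, catalase Cat at -1.73 and -1.81 and the mitochondrial dehydrogenase Hadh at -2.09 and -2.14. Subunits of the respiratory chain were lower by less, in 51 of 75 cases with 1 higher and 33 passing, and the medians were -0.36 and -0.27. Cox7a1 stood apart at -2.14 and -2.0, and the next were Ndufv3 at -0.96 and -0.94 and Ndufa6 at -0.85 and -0.89.

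Enzymes that process foreign compounds and steroids were lower too. Of 34 conjugating and detoxification enzymes 25 were lower and 5 higher, and of 21 cytochrome P450 genes 16 were lower and 1 higher. The aldehyde dehydrogenase Aldh1b1 had ratios of -2.47 and -2.35, the carboxylesterase Ces2a of -2.43 and -2.32 and the epoxide hydrolase Ephx2 of -2.20 and -2.20. Cyp2d26 and Cyp4v3 stood at -2.43 and -3.36 and at -2.40 and -2.75. These families hold close copies, so single members are uncertain. Cyp1b1 was the higher P450 gene at 1.17 and 0.82, as the mean of 2 probes that lay about 2 apart, the first of which alone gave a mean of -0.00325. Genes of cholesterol synthesis and uptake, with a few of fatty acid synthesis, were lower in 15 of 22 cases with 0 higher, and 9 passed. The desaturase Scd1 stood at -1.60 and -2.75, Insig1, which restrains sterol synthesis, at -1.45 and -1.97, and the reductase Dhcr7 at -0.65 and -0.76. The SREBP motif TCACNCCAC, searched in the same windows, was found for 1 of 17 of these genes (5.88%) and 1.22% of all genes. That gene, Hmgcs1 at -0.27 and -0.72, missed the threshold (adjusted p = 0.111 in limma), and 1 gene is too few to compare shares.

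Enzymes of arginine and ornithine metabolism went both ways, with 6 of 15 lower and 4 higher. Oat, which turns ornithine towards proline and glutamate, stood at -2.51 and -2.66, the carbamoyltransferase Otc at -2.61 and -2.07 and the synthase Nags at -1.92 and -1.89. Gatm, the first enzyme of creatine synthesis, was higher at 2.47 and 1.47. Of 14 carbonic anhydrases 2 were higher (14.3%), 3 lower (21.4%) and 8 inside the range in both pairs, near the shares of all genes. Car2 stood at 3.56 and 2.35 and Car9, a gene known to respond to low oxygen, at -1.95 and -1.89.

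Crypt base genes lay on both sides. Of 15 genes known from crypt base stem cells 6 were lower and 4 higher, with 3 and 3 passing. Smoc2, a secreted matrix protein, stood lowest at -2.78 and -1.92. Lgr5 was 2.95-fold lower in its mean and missed the threshold (adjusted p = 0.0542). Rgmb, a BMP co-receptor, had ratios of -0.76 and -0.58. On the other side stood Sox9 at 0.64 and 1.01 and Prom1, with 2 probes 1.03 apart, at 0.50 and 0.54, and the Wnt-dependent factor Ascl2 at 0.45 and 1.19 without passing (adjusted p = 0.102). Among 24 Wnt feedback and target genes 6 were higher and 2 lower. The feedback gene Axin2 stood at -0.73 and -0.55, the R-spondin-sensitive ligase Rnf43 at 0.72 and 0.94 and the ligands Wnt4 and Wnt7b at 0.96 and 1.05 and at 1.14 and 0.85.

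Secretory cell genes were lower more often than higher. Of 12 Paneth cell genes 7 were lower and 3 higher, the latter Reg3b at 0.96 and 0.99, Nupr1 at 1.05 and 0.66 and the protease Mmp7 at 0.21 and 0.22. Ang4, a secreted ribonuclease, stood at -2.42 and -1.67. Of 18 goblet cell and guanylin genes 10 were lower and 1 higher. Spink4 and Klk1 had ratios of -1.50 and -1.80 and of -1.36 and -1.61. Hormone and granule genes of enteroendocrine cells were lower in 17 of 26 cases and higher in 2, with 14 passing as lower. The granule protein Chgb stood at -2.62 and -2.32 and the hormones Cck and Sct at -1.80 and -1.79 and at -1.90 and -1.70. The higher ones were Cpe at 0.77 and 0.40, without passing (adjusted p = 0.0596 in limma), and Fabp5 at 1.57 and 1.49. Fabp5 encodes a fatty acid binding protein, neither a hormone nor a granule protein. Of 16 transcription factors of that lineage 6 were lower, Neurog3 at -0.93 and -0.93 and Neurod1 at -1.09 and -0.86 among them, and 8 lay inside the control range in both pairs. Foxa1 was higher at 1.11 and 0.98. Of 14 tuft cell genes 0 were beyond the range in both pairs, and the tuft factor Pou2f3 stood at 0.11 and 0.04. The part of a lower share of secretory or absorptive cells in the other ratios was not tested.

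Notch pathway genes were lower in 6 and higher in 2 of 25 cases. The ligand Dll1 stood at -1.02 and -0.96 and the effector relative Hes6 at -0.93 and -0.92, both known from secretory precursors, and the ligand Jag1 at 0.84 and 0.66. Of 32 TGF beta and BMP genes 8 were higher (25%) and 7 lower (21.9%), against 15.6% and 15.7% of all genes. The activin antagonist Fst had ratios of 2.41 and 1.95 and the inhibitor Id2 of 1.47 and 0.97, while Tgfbi stood at -1.39 and -0.77. Of 9 Hedgehog genes 1 was beyond the range in both pairs, Dhh at 0.40 and 0.34, for which the first probe alone gave a mean of -0.024. Among 36 Hox genes 4 were lower, 0 higher and 26 inside the range in both pairs. Hoxa7, at -0.62 and -0.27, and Hoxb2, at -0.94 and -0.17, did not pass (adjusted p = 0.0886 and 0.221 in limma). Sox21 led the 17 Sox genes at 1.58 and 1.62. Among 15 imprinted growth genes Phlda2 stood at 1.09 and 1.04 and Cdkn1c had the lowest mean. Tight junction genes were higher in 3 and lower in 4 of 19 cases, shares near those of all genes, with the claudin genes Cldn4 at 1.83 and 1.27 and Cldn15 at -1.89 and -1.94. Of 9 endocytic genes of the neonatal intestine 2 were higher and 2 lower, with Amn, part of the cobalamin receptor, at -1.91 and -2.11. The globin gene Hba-a1 was the 1 of 6 red blood cell genes beyond the range, at 0.86 and 0.56.

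Interferon response and MHC genes were lower in 21 and higher in 2 of 35 cases, with 14 passing as lower. Ifitm3, which blocks virus entry, stood at -1.57 and -1.86, and the MHC class I genes B2m and H2-K1 at -1.61 and -1.39 and at -1.22 and -1.10. The immunoproteasome subunit Psmb8 had ratios of -1.45 and -1.02. Of 41 proteasome genes 20 were higher and 5 lower, with 6 passing as higher and 4 as lower. The lower ones were Psmb8, Psmb9, Psmb10, Psme1 and Psme2, the subunits known to be induced by interferon. Psmb10 and Psme2 are named after their values were seen. The constitutive subunit Psmb5 stood at 0.35 and 0.48 and Psmd12 at 0.47 and 0.52. Psmb9 had ratios of -1.79 and -0.98 and Psme1 of -0.93 and -0.74. Chaperones were higher in 16 of 30 cases and lower in 2, with Hsph1 at 0.70 and 0.92.

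**Figure D4:**
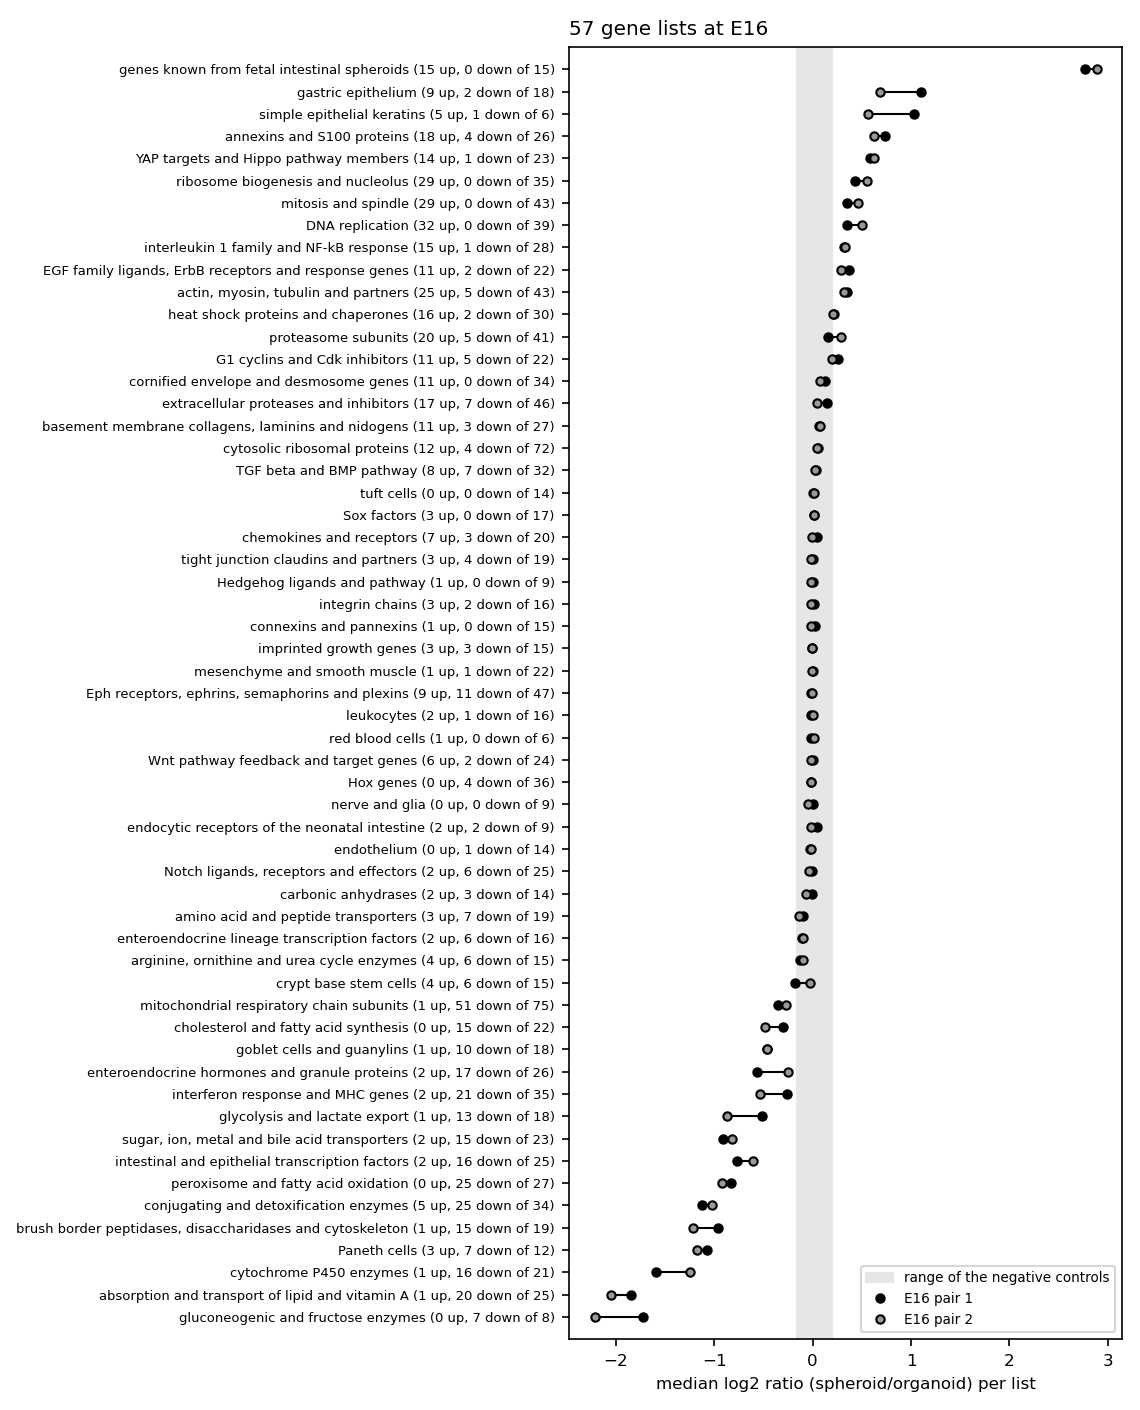
Median log2 ratio of spheroid to organoid per list (horizontal axis) in the first (black) and second (grey) E16 pair, for 57 lists, with the number of genes higher and lower in both pairs beside each name. The grey band is the range of the negative control probes over both pairs. Fetal spheroid genes lie farthest above it and gluconeogenic enzymes, lipid handling and P450 genes farthest below.

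The pairs differed from each other by a median of 0.08 in size over all genes and by more than 1 for 50 genes. Across genes, which are not independent replicates, their Pearson correlation was 0.916. Of 18 glycolysis and lactate export genes 13 were lower and 1 higher, with 7 passing as lower and 1 as higher. All 18 measured members were lower in the second pair than in the first, where 51.6% of all genes were. Their medians were -0.51 and -0.87. The lactate exporter Slc16a3 had ratios of -1.67 and -2.06 and the kinase Pdk1 of -1.25 and -1.78, both passing, whereas lactate dehydrogenase Ldha, at -0.81 and -1.55, missed the threshold (adjusted p = 0.0529). Ldhb was the higher member at 2.54 and 1.66. Of 35 interferon response and MHC genes 23 were lower in the second pair than in the first. Their medians were -0.26 and -0.53, but the median difference within genes was 0.07. Isg15, which tags proteins during virus defence and is named for its difference between the pairs, stood at -0.24 and -1.91. Which animal's cultures were handled how is not given, so the source of these differences was not tested.

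**Figure D5:**
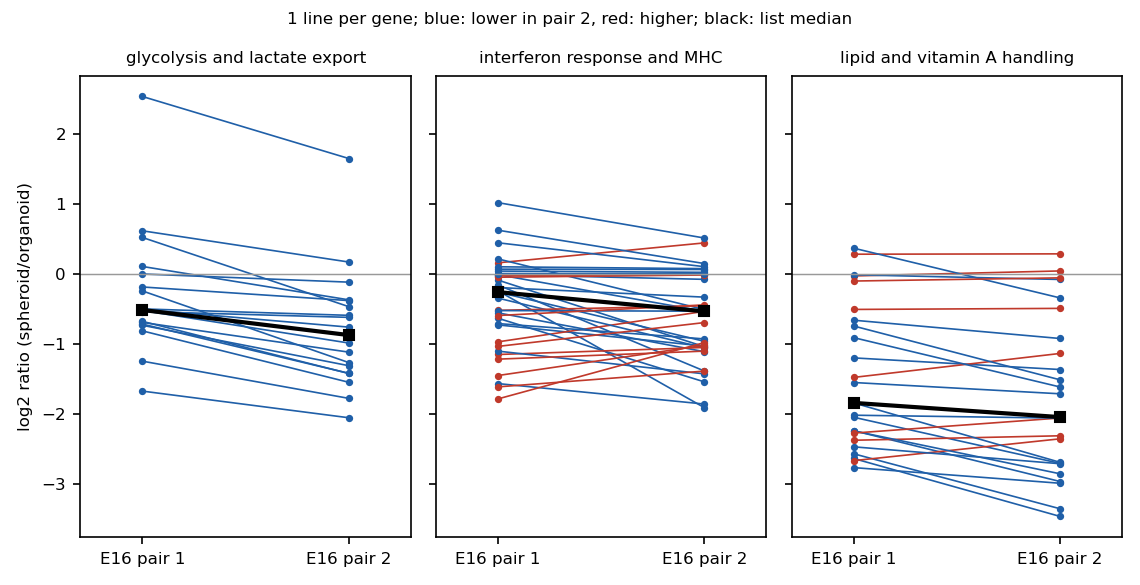
Log2 ratio of spheroid to organoid (vertical axis) in the first and second E16 pair, 1 line per gene, for 3 lists, with the list median in black. All 18 glycolysis lines end lower in the second pair than they start in the first, and lines of the interferon and lipid lists run both ways.

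Of the 111 genes on opposite sides, Igfbp5, an IGF-binding protein, was farthest apart at 0.88 and -0.82. The dipeptidase Pepd followed at -1.03 and 0.39, Hgfac, an activator of hepatocyte growth factor, at 1.07 and -0.32, and the Wnt-induced factor Sp5 at -0.18 and 0.86. Others among the 8 farthest were the hexokinase Hk1 at 0.53 and -0.47, Cox20 at -0.66 and 0.25, Rraga at -0.39 and 0.51 and Htatsf1 at -0.45 and 0.42. On the same side with the largest differences stood Ear10, a ribonuclease, at -0.20 and -2.41, Gdpd3 at -0.38 and -2.08 and Clec2d at -2.13 and -0.60. With Tff1, Isg15 and Wfdc2 these are the 6 genes of that kind, of which Wfdc2 passed in limma.

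The E18 and P0 pairs, 1 animal each, give a reference without a test within stage. Their control ranges, -0.36 to 0.10 and -0.33 to 0.17, reached farther below 0 than above it. Lower calls there were thus stricter than higher calls, and stricter than lower calls at E16. Of the genes higher at E16, 53.0% were also beyond the range on that side in the E18 pair and 59.5% in the P0 pair, where 24.2% and 21.5% of all genes were. Of the genes lower at E16, 24.8% and 41.1% were lower there, where 10.8% and 12.9% of all genes were. Higher there were 906 (38.1%) and 452 (19%) of these genes, against 24.2% and 21.5% of all genes. Opposite calls thus exceeded the share of all genes in the E18 pair but not in the P0 pair. Both later pairs shared the side of E16 for 43.3% of the higher genes, against 13.3% of all genes on that side. For the lower genes it was 17.9%, against 5.65% of all genes. Opposite in both later pairs were 105 of the 2354 higher and 292 of the 2379 lower genes. Of all genes, 5.65% were lower and 13.3% higher in both later pairs. A limma test of the difference between the E16 pairs and the later pairs called 0 genes, with a smallest adjusted p of 0.0829 and 2883 genes at an unadjusted p under 0.05.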

How the data were processed

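Spheroid and organoid RNA of 1 animal was amplified, labelled with Cy3 or Cy5 and hybridised together on MEEBO arrays with the dyes swapped, per the labels' protocols. The authors deposited 1 value per probe and animal for 38083 probes, taken here as log2 ratios, since no label gives the base. Values reached 7.51, too far for log10, and all were multiples of 0.0005. The column medians lay near 0, but whether the authors centred the columns is unknown. Background correction, normalization and how the swapped arrays were combined were left unstated: not given in the sources used here. No intensities were used, so depth over background is unknown and the number of arrays limits the precision.

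Probe names follow the platform annotation held by GEO, parts of which may be outdated: 22941 had 1 gene, 0 several and 15142 none. The 22305 named probes with the mouse gene prefix were averaged to 15123 genes, of which 5108 had several probes and 141 of those had probe means over 1 apart. Symbols come from RefSeq (GRCm38.p6), which matched all named probes. The range of 94 negative control probes set the limits. The test was limma 3.58.1 in R 4.3.3; its two-sided p-values were adjusted by Benjamini-Hochberg across all genes, and it was checked on simulated data.

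The genes named are the 25 highest and 25 lowest by the smaller ratio, up to 6 members on the fuller side and 3 on the other side of each of 57 lists, inside-range members of cell type lists, the genes on opposite sides or farthest apart, Lgr5 and Gja1. Members and lists were chosen with earlier results of these data known. List counts are read against the shares of all genes, with no list test. A gene is not reported here. Alternatives covered the control limits, the probe taken, scaling, the prior, the samples in the fit, a filter and leaving out each pair.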

Additional observations from a re-analysis of the deposited data

Results flagged for a closer look

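Detoxification enzymes and genes of cholesterol and fatty acid synthesis were flagged because their medians had 1 sign in both E16 pairs and the other in both later pairs. The median of conjugating and detoxification enzymes was -1.01 at E16, from -1.13 and -1.02 in the pairs, against 1.00 in the E18 pair and 0.31 in the P0 pair. Cholesterol and fatty acid synthesis had a median of -0.43 at E16, from -0.30 and -0.49, against 0.53 and 0.67.

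Cell division genes were flagged in the other direction. DNA replication had a median of 0.41 at E16, from 0.35 and 0.50, against -0.49 in the E18 pair and -0.30 in the P0 pair. For mitosis and spindle genes the median was 0.43, from 0.35 and 0.46, against -0.18 and -0.31. These differences between stages were not tested for the lists, and each later stage is 1 animal.

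Among the 50 highest and lowest genes, Rbp2, the retinol carrier of enterocytes, was flagged for the same reason. Its mean at E16 was -2.59, and it stood at 1.45 in the E18 pair and 0.14 in the P0 pair. The limma test of the difference, -3.39, gave an adjusted p of 0.111.

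Some probes that the report's comparisons do not use also lay beyond the control range, at lower shares than the 15.6% and 15.7% of named genes. Of 12773 mouse gene probes without a name, 927 were higher (7.26%) and 1078 lower (8.44%) than the control range in both E16 pairs. At least 2-fold in both pairs were 75 and 138 of these. Of 358 probes designed for viruses, 3 were higher (0.838%) and 7 lower (1.96%), none reaching 2-fold, with means between -0.70 and 0.67. Of 37 transgene probes 0 were higher and 1 was lower (2.70%), at -0.63.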

How the results depend on the processing

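The count of genes beyond the control range was 2354 higher and 2379 lower. It fell to 1283 and 1537 with limits 2 times as wide, and to 251 and 394 with a 2-fold limit in both pairs, as a stricter limit must. With 1 pair alone it ranged from 2895 to 3320 higher and from 3007 to 3136 lower. The 1st to 99th percentile of the controls, 1 probe per gene, every probe and scaled columns kept both counts within 1.5 times. The limma counts of 1666 and 1653 were 277 and 272 with all 4 pairs in 1 fit, and without either E16 pair the range was 0 to 0 in each direction. The other limma alternatives stayed within 1.5 times. Leaving out genes inside the control range selects on the ratios themselves, so its p-values say nothing about stability. Of 385 genes named or open to naming, 326 passed. Of these, 300 passed with the first probe of each gene, 321 with scaled columns, 316 with a robust prior and 86 with all 4 pairs in 1 fit. The first probe alone turned the sign of Aqp4 (0.0205), Col18a1 (-0.119), Cxcl16 (-0.0205), Cyp1b1 (-0.00325), Dhh (-0.024) and Sema5a (0.012). No list median beyond the control range changed sign, but 16 of 57 list medians moved by more than the spread between the pairs with the first probe, 16 without the first pair and 25 without the second. The ratio is already taken within an animal, so the test of its mean against 0 is itself a paired analysis. Pairing between stages was not possible, since each stage came from other animals. Low signals cannot be told from small differences, since brightness is unknown.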

Other observations

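Targets of the p53 protein, which halts or kills damaged cells, were looked at after some of their values were seen, so their counts support nothing. Of 22 measured targets, 17 were higher and 2 lower than the control range in both E16 pairs, against 15.6% and 15.7% of all genes. The lower ones were Ddit4 and Pmaip1, the latter at -0.29 and -0.60 without passing. The list is not complete. Gadd45a, also known as a target, was left out of it and was lower at -1.30 and -1.43. Phlda3, which restrains the kinase Akt, stood at 2.47 and 2.40, and Plk2, a kinase of the polo family, at 2.13 and 2.28. Ccng1 stood at 1.84 and 1.82 and Eda2r, a receptor of the tumour necrosis factor family, at 2.00 and 1.50. The cell cycle inhibitor Cdkn1a had ratios of 1.39 and 0.55 and missed the threshold in limma (adjusted p = 0.0947). Ddit4, a brake on mTOR that also responds to low oxygen, was lower at -0.95 and -1.12, against 1.28 in the E18 pair and 0.46 in the P0 pair. All 5 higher genes named here were also higher in the E18 and P0 pairs, where 24.2% and 21.5% of all genes were.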
